A study of Homo sapiens with 16 samples.

Results

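Abemaciclib, an inhibitor of the cyclin-dependent kinases CDK4 and CDK6, was compared with vehicle in T47D cells, an established line of estrogen receptor-positive luminal breast cancer. The 4 libraries of the drug group came from cells with a control guide treated with 500 nM abemaciclib for 3 days. The 4 libraries of the other group came from cells with the same control guide given vehicle, which the titles name as DMSO. The difference was taken between these 8 of the 16 libraries of the study. The other 8 came from FAH knockout T47D cells under the same treatments, where FAH (fumarylacetoacetate hydrolase) ends the breakdown of tyrosine. For that difference they entered only the estimate of the spread. They also gave the drug effect in knockout cells, which is set beside the one in control cells further on. The cells grew in serum, and the labels name neither the guides nor whether the cells were a clone or a pool. A gene entered the comparison when its level was at least 1 CPM (reads per 1000000 assigned reads) in at least 4 of the 8 libraries, with the ERCC spike-in controls left out. This rule kept 15550 of 78894 features.

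CDK4 and CDK6, bound to a D-type cyclin, phosphorylate the retinoblastoma protein RB and its relatives. Unphosphorylated RB holds E2F factors inactive, so that genes for DNA synthesis are not transcribed, and related pocket proteins join the MuvB core in the DREAM complex, which represses both DNA synthesis and mitotic genes. Drugs of this class are used in hormone receptor-positive breast cancer, where the luminal cells depend on cyclin D1, and they arrest cells that have intact RB before S phase.

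In the 8 libraries, 9915776 to 11767536 reads were assigned to genes, and the first principal component held 74.1% of the variance and separated the groups (-26.1 to -25.2 under vehicle, 25.2 to 26.2 under abemaciclib). Abemaciclib replicate 1 stood apart on the second component, which held 6.19%, at 16.6 against -9.86 to 0.0088 for the other drug libraries, and list counts that its removal moved by over 1.5 times are given with the lists. FAH in the knockout libraries was 6.65 ± 0.32 CPM under vehicle and 5.76 ± 0.74 CPM under abemaciclib, below every control library. The luminal markers ESR1, PGR, GATA3, FOXA1, KRT8, KRT18, KRT19, EPCAM and CDH1 summed to 9415 to 9582 CPM under vehicle and 11230 to 11680 CPM under abemaciclib. Of these, KRT8, KRT18, KRT19, PGR and CDH1 were higher in every drug library. ESR1, GATA3 and FOXA1 overlapped between the groups, and EPCAM was lower in every drug library. The basal marker KRT5 and the endothelial marker CDH5 were at 0 in all 8 libraries, and the 6 leukocyte markers summed to 4.54 to 6.22 CPM under vehicle and 3.71 to 4.16 CPM under the drug. The 5 basal markers summed to 74.7 to 80.5 CPM under vehicle and 83.4 to 92.2 CPM under the drug, with CDH3 the one that rose (from 42.3 ± 0.89 to 59.6 ± 2.7 CPM, SD, n = 4 each), and the 6 fibroblast markers to 45.7 to 48.3 and 55.2 to 67.5 CPM; their part in the results was not tested. The labels do not say that the replicates were separate cultures, so the p-values measure the spread between libraries. That spread differed between the groups. Over the 9153 genes with the higher levels, squared differences within vehicle pairs averaged 1.62 to 2.41 times counting error. Within drug pairs they averaged 1.74 to 7.18 times, most in pairs with abemaciclib replicate 1. The fit used 1 spread per gene for all groups. In bulk RNA, fewer cells of a kind and less RNA per cell cannot be told apart.

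The drug changed the level of about 1 gene in 2 among those tested, mostly by small amounts. With an adjusted p under 0.05 in limma on log2(CPM + 1), 3134 genes were higher under abemaciclib (20.2% of those tested) and 4975 were lower (32.0%). The large changes were mostly decreases: 338 of the called genes fell at least 2-fold in CPM + 1 and 92 rose at least 2-fold. The median size of a called change was 0.36 in log2(CPM + 1). Low genes can pass 2-fold in CPM without being in these counts. The 4 values of each group did not overlap for 2451 of the genes called higher and 4115 of those called lower. Without abemaciclib replicate 1, 2844 genes were higher and 5130 lower. The share of the called genes that were higher, 38.6%, depended on scaling: with median-of-ratios factors, which moved the median change over all genes from -0.05 to 0.01, 4100 genes were higher and 3956 lower, a share of 50.9%. Changes of about that size in either direction therefore depend on how libraries are scaled. A dagger marks genes whose values were no whole multiple of 1 read in at least 4 of the 8 libraries, so that part of their reads was shared with other genes.

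**Figure D1:**
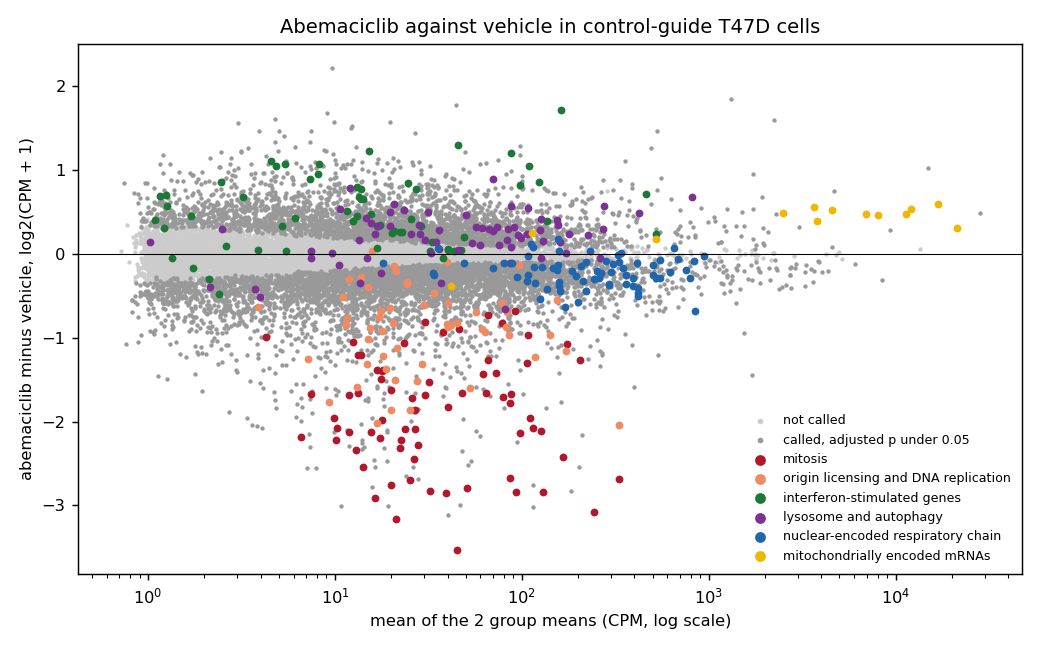
Each point is 1 of the 15550 tested genes, with the mean of the group means in CPM on a log axis and the difference of abemaciclib and vehicle in log2(CPM + 1) on the vertical axis; 6 gene lists are coloured. All 70 mitosis genes lie below 0, most mitochondrially encoded mRNAs lie at the right edge and above 0, and the interferon-stimulated genes lie mostly above 0.

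The 15 protein-coding genes with the largest decreases, among those of at least 5 CPM whose groups did not overlap, were nearly all genes of the dividing cell. They were AURKB (-3.53 in log2), KIF20A (-3.16), CCNA2 (-3.12), PTTG1 (-3.08), HMGB2 (-3.02), NEURL1B (-3.01), NMU (-3.01), RRM2† (-3.0), SPC25† (-2.91), PLK1 (-2.85), MYBL2 (-2.84), BIRC5† (-2.84), NUSAP1† (-2.83), PCLAF† (-2.83) and MKI67 (-2.8). AURKB, the kinase of the chromosomal passenger complex that corrects attachments of chromosomes to the spindle (chr17:8204733-8210600, minus strand, GRCh38, GENCODE 29), was at 84.8, 82.6, 82 and 84.8 CPM in vehicle replicates 1 to 4 and at 7.66, 4.99, 7.48 and 5.49 CPM in abemaciclib replicates 1 to 4. Every drug library was far below every vehicle library, and the change was -3.53 ± 0.09 (SE) with an adjusted p of 4.6e-26. MKI67, whose protein Ki-67 is the usual tissue marker of dividing cells, was at 85.5, 89.6, 95.4 and 88.1 CPM under vehicle and 13.2, 12.5, 11.7 and 10.9 CPM under the drug. Its groups lay far apart, and its level under the drug was 13.5% of that under vehicle. Of the genes in this group without an established role in division, NMU encodes the peptide neuromedin U and fell from 19.95 ± 1.5 to 1.64 ± 0.49 CPM (SD, n = 4 each), and NEURL1B, a ubiquitin ligase gene, fell from 34.9 ± 1.8 to 3.46 ± 0.18 CPM.

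The pathway that the drug acts on changed at nearly every level. Of 32 tested genes in the list of D cyclins, CDK4†/6, RB and E2F, 5 rose, 23 fell and 4 were not called, with a median of -0.53 against -0.05 over all genes. The number that rose was 3 without abemaciclib replicate 1 or vehicle replicate 2 or 4. CCND1, which encodes cyclin D1 (chr11:69641087-69654474, plus strand, GRCh38, GENCODE 29), was at 224, 227, 233 and 219.7 CPM in the vehicle libraries and at 541, 477, 455 and 485 CPM under abemaciclib. All 4 drug libraries were above 2 times the vehicle mean, with a change of 1.11 ± 0.042 and an adjusted p of 2.4e-21. The related cyclin D3 gene, CCND3, moved the other way, from 29.8 ± 1.6 to 22.4 ± 1.0 CPM (SD, n = 4 each; -0.39 in log2, adjusted p 6.3e-07). Of the drug's target kinases, CDK6 was at 2.72, 3.37, 2.82 and 3.49 CPM under vehicle and 7.1, 6.66, 6.54 and 5.68 CPM under abemaciclib, and CDK4 at 180.4, 184, 187 and 172 and 151, 140.1, 136 and 150.0 CPM. CDK6 was therefore higher in every drug library (0.87 ± 0.1, adjusted p 9e-09) but from a low level, while CDK4 was lower in every drug library (-0.32 ± 0.037, adjusted p 5.9e-09).

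Among the pocket proteins, RB1 fell from 33.9 ± 2.5 to 27.8 ± 2.4 CPM and RBL1, which encodes p107 and is itself an E2F target, from 10.5 ± 0.24 to 6.05 ± 0.94 CPM. RBL2, which encodes the p130 of the DREAM complex, was at 20.3, 20.6, 23.4 and 19.9 CPM under vehicle and 26.5, 23.4, 23.4 and 22.9 CPM under the drug. The RBL2 groups overlapped, and its rise of 0.18 (adjusted p 0.0271) was lost without abemaciclib replicate 1 (adjusted p 0.108) and without any of vehicle replicates 1, 2 and 4. The CDK inhibitor genes mostly fell. CDKN1A, which encodes p21, was at 40.2, 37.9, 37.9 and 38.6 CPM under vehicle and 17.6, 18.7, 16.2 and 18.9 CPM under the drug, with no overlap (-1.08 ± 0.058, adjusted p 5.9e-17). CDKN2C, which encodes the CDK4/6 inhibitor p18, fell further, from 31.4 ± 2.4 to 6.44 ± 0.47 CPM (-2.12 in log2), and CDKN1B (p27) and CDKN2A (p16 and p14ARF) fell by 0.53 and 0.53. The exception was CDKN2B, the gene of p15, which rose by 0.65.

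Of 10 genes of E2F and DP factors 7 fell and 1 rose. E2F1, the best studied activator, was at 58.3, 54.1, 61.3 and 58.5 CPM under vehicle and 24.8, 29.6, 25.4 and 29.2 CPM under the drug. Each drug library held about 1 E2F1 read for every 2 under vehicle, and the change was -1.07 ± 0.066 (adjusted p 2.4e-15). The repressors E2F7 and E2F8, which are normally transcribed in S phase, fell more, from 16.7 ± 1.5 to 3.09 ± 0.57 CPM and from 6.79 ± 0.76 to 0.881 ± 0.17 CPM, and E2F2 fell by 1.54. E2F3†, another activator, was not called (0.13, adjusted p 0.114), but was called higher under either other scaling and without vehicle replicate 3 (0.20, 0.20 and 0.17). All 7 genes of the CDK2 module fell. CCNA2, the gene of the S phase and mitotic cyclin A2, was at 77.5, 71.9, 73.1 and 69.2 CPM under vehicle and 8.41, 6.57, 6.63 and 8.67 CPM under abemaciclib, a level of 10.4% of vehicle. CCNE2 fell from 25.5 ± 1.6 to 5.83 ± 0.66 CPM and CDK2 from 65.3 ± 3.2 to 36.6 ± 2.3 CPM. CCNE1, the other cyclin E gene, changed least: its groups overlapped (8.98, 7.24, 8.16 and 7.07 against 7.57, 4.73, 6.37 and 5.97 CPM), and its decrease of 0.32 (adjusted p 0.0174) was not called under either other scaling (adjusted p 0.0512 and 0.0575) or without vehicle replicate 1 (0.075) or abemaciclib replicate 2 (0.116).

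**Figure D2:**
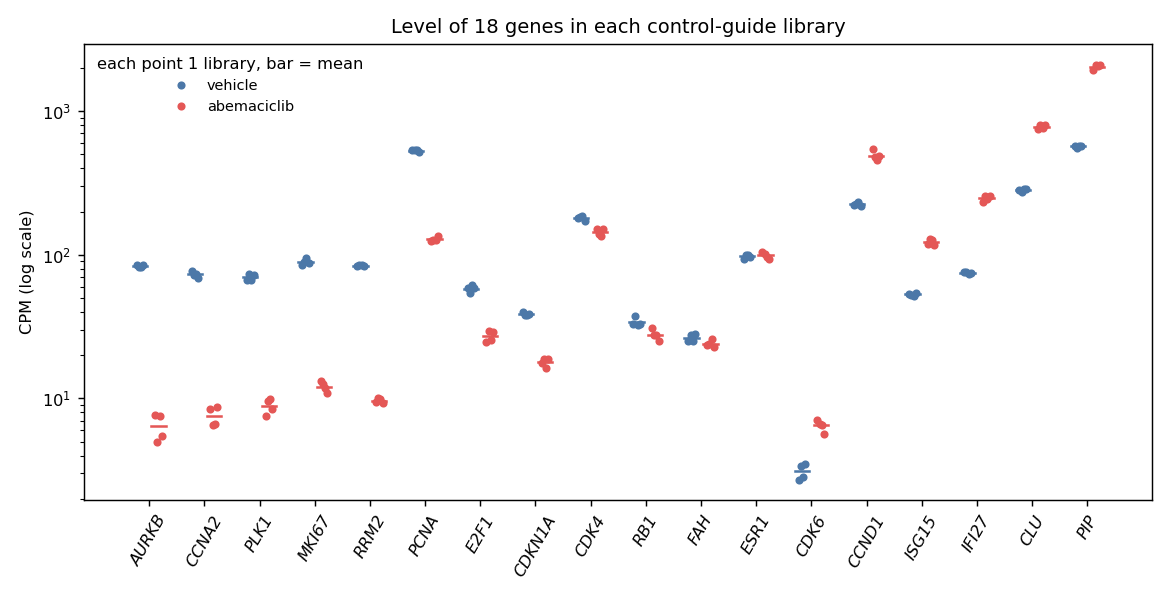
Level in CPM (log axis) of 18 genes in each of the 8 control-guide libraries, with 1 point per library and a bar at the group mean, vehicle on the left and abemaciclib on the right of each gene. From AURKB to CDKN1A the drug libraries lie below the vehicle libraries, FAH and ESR1 overlap, and from CDK6 to PIP the drug libraries lie above.

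DNA synthesis and mitotic genes differ in the words their promoters carry, and sequences are shown for both kinds because nearly all tested members of both lists fell. The first word is the E2F site, searched as TTTCCCGC, TTTGGCGC, TTTCGCGC or TTTGCCGC; the other is the cell cycle genes homology region (CHR), bound by the MuvB core, searched as TTTGAA. Each was searched on both strands of RefSeq promoter windows (GRCh38.p14), which run from 250 bases before to 50 after a transcription start. Each stretch below runs from 120 bases before to 20 after the start, 5′ to 3′ in the direction of transcription, for the 2 members of each list with the largest decrease that held the word, which is in capitals. The sequences are PCNA† at chr20:5126603-5126742 (minus strand), GMNN at chr6:24775293-24775432 (plus strand), SPC25 at chr2:168890411-168890550 (minus strand) and PLK1 at chr16:23678769-23678908 (plus strand).
PCNA: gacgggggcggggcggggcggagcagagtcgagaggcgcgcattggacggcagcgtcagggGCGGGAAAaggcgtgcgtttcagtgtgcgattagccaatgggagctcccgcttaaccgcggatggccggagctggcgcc
GMNN: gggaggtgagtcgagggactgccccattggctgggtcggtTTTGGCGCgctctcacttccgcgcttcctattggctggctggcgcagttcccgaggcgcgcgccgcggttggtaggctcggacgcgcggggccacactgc
SPC25: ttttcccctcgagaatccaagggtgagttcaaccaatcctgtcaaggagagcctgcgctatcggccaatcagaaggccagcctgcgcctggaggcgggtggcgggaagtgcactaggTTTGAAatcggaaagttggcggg
PLK1: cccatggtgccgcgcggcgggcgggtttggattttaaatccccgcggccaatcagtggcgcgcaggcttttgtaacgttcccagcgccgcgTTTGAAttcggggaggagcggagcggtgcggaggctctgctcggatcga
The E2F word begins 59 bases before the start in PCNA and 80 in GMNN, and the CHR begins 29 bases before the start in PLK1 and 3 before it in SPC25, whose window holds a further CHR outside the stretch.

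Of 46 genes of origin licensing and DNA replication with a window, 23 (50%) held an E2F word and 1 (2.17%) held a CHR. Of 59 mitosis genes with a window, 4 (6.78%) held an E2F word and 41 (69.5%) a CHR. In the 9952 tested protein-coding genes with a window, the shares were 6.82% and 13.5%, and among all 27305 symbols with a promoter window they were 3.99% and 18.2%. Of 10 deoxynucleotide genes with a window, 3 held an E2F word and 3 a CHR. Within the 140-base stretch alone, 59.3% of the mitosis genes held a CHR, against 5.82% of the tested protein-coding genes, and 47.8% of the replication genes held an E2F word, against 3.43%. A match describes the letters only, and shares of E2F words depend on the letters required: with a 7-letter core 33.9% of the mitosis genes, 73.9% of the replication genes and 25.5% of the tested protein-coding genes held one.

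**Figure D3:**
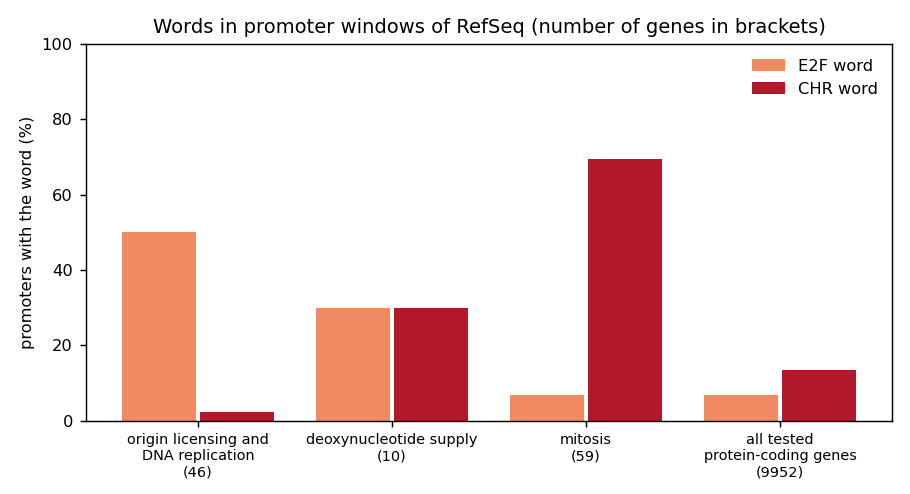
Percent of genes whose promoter window holds an E2F word or a CHR word, for 3 lists and for the tested protein-coding genes, with the number of genes with a window in brackets. The replication list stands out for the E2F word (50%) and the mitosis list for the CHR word (69.5%), while all tested genes hold 6.82% and 13.5%.

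Both lists fell, but not to the same depth. Of 54 replication genes, 51 fell, none rose and 3 were not called (ORC2, RFC1 and ORC4†), with a median of -0.85. PCNA, the sliding clamp of DNA polymerases whose promoter is printed above, was at 533, 536, 533 and 523 CPM under vehicle and 124, 127, 126 and 136 CPM under abemaciclib. The drug libraries lay close together at 24.2% of the vehicle mean (-2.04 ± 0.034, adjusted p 2.5e-31). GMNN, which encodes the licensing inhibitor geminin, was at 42.9, 38.5, 38.5 and 40.9 CPM under vehicle and 11.7, 9.64, 9.86 and 10.2 CPM under the drug (-1.86 ± 0.069, adjusted p 1.7e-21). The primase gene PRIM1† and MCM10, which helps the helicase start, fell by 2.02 and 1.87, and the replication checkpoint mediator CLSPN by 1.58. The MCM helicase subunit MCM3 fell less, from 94.6 ± 3.4 to 62.8 ± 3.9 CPM (-0.58 in log2). Of 12 genes of deoxynucleotide supply, 9 fell and none rose (1 rose with quantile scaling), with a median of -1.13. RRM2, the S phase subunit of ribonucleotide reductase, was at 82.9, 84.6, 84.3 and 83.6 CPM under vehicle and 9.44, 9.99, 9.86 and 9.3 CPM under the drug. Its drug libraries held 11.5% of the vehicle level, and TYMS and TK1, which make thymidylate, held 16.5% and 20.6%.

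All 70 mitosis genes fell, between 0.68 and 3.53 on the log2 scale, with a median of -1.85. Their summed level was 6046 to 6199 CPM in the vehicle libraries and 1617 to 1711 CPM in the drug libraries, 26.9% of vehicle, against 49.9% for the replication list and 39.7% for deoxynucleotide supply. PLK1, the kinase of mitotic entry, was at 66.5, 73.9, 66.4 and 72.2 CPM under vehicle and 7.57, 9.55, 9.86 and 8.48 CPM under the drug (-2.85 ± 0.078, adjusted p 3.6e-25). SPC25, a subunit of the NDC80 kinetochore complex, was at 29.05, 31.002, 29.5 and 29.6 CPM under vehicle and 2.48, 3.33, 3.34 and 3.32 CPM under the drug. Both groups of SPC25 were narrow, apart from abemaciclib replicate 1, which was the lowest. CDK1, the mitotic kinase, fell from 149 ± 7.4 to 22.6 ± 1.5 CPM, its partner CCNB1 (cyclin B1) from 207 ± 9.1 to 47.3 ± 3.8 CPM and the topoisomerase TOP2A from 282 ± 7.8 to 51.7 ± 2.4 CPM. The factors that switch mitotic genes on fell too: MYBL2, which encodes B-Myb, from 228 ± 6.4 to 30.97 ± 1.4 CPM, and FOXM1† from 38.7 ± 0.74 to 8.4 ± 1.1 CPM. By role, the medians were -1.67 for kinases and cyclins, -1.71 for kinetochore and segregation genes, -1.82 for spindle and cytokinesis genes and -2.08 for ubiquitin ligase components and regulators.

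Most genes of DNA repair and chromatin in the lists also fell. Of 29 genes of homologous recombination and the Fanconi anemia pathway, 25 fell and 1 rose, with RAD51AP1 at -1.74 and EXO1 at -1.64. The riser was RBBP8, which encodes the resection factor CtIP, from 107 ± 3.5 to 161 ± 12 CPM (0.59 in log2), while ATM†, ATR and FANCM were not called. Of 50 replication-dependent histone genes, 25 passed the level filter and 18 of those fell. With a filter of 5 CPM 9 passed and 8 fell. H4C3 was at 358, 307, 342 and 373 CPM under vehicle and 53.9, 67.5, 54.05 and 58.5 CPM under the drug. All 10 genes in the list of lamins and chromatin of arrested cells fell, but the list was chosen with earlier results of these data known. Among them were LMNB1, which encodes lamin B1, from 97.8 ± 0.74 to 21.02 ± 1.6 CPM and HMGB2 from 204 ± 14 to 24.4 ± 2.5 CPM. In the list of DNA methylation and repeat silencing, 17 of 24 genes fell and 3 rose, with a median of -0.41. The maintenance methyltransferase gene DNMT1 was at 79.7, 79.7, 79.5 and 79.8 CPM under vehicle and 44.7, 43.01, 42.1 and 39.98 CPM under the drug. The 4 vehicle values of DNMT1 differed by less than 1 CPM, the drug values were all lower (-0.89 ± 0.046, adjusted p 1.7e-17), and UHRF1†, which brings DNMT1 to the fork, fell by 1.52.

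Of 25 secreted factors often measured in senescent cells, 6 passed the level filter, with 2 higher and 3 lower. The insulin-like growth factor binding protein gene IGFBP5† rose from 1176 ± 51 to 2272 ± 177 CPM, and AREG, which encodes the EGFR ligand amphiregulin, fell from 135 ± 5.1 to 55.5 ± 3.7 CPM. Among 27 regulators of apoptosis 5 rose and 6 fell, but 11 rose with either other scaling. With the deposited scaling 20.2% of all tested genes rose and 32.0% fell, which is 3134 and 4975 of 15550. With median-of-ratios and quantile scaling 4100 and 4350 of all tested genes rose, and 3956 and 3826 fell. The antiapoptotic BCL2L1, which encodes BCL-xL, was at 57.4, 53.4, 59.5 and 54.6 CPM under vehicle and 97.5, 89.9, 91.2 and 90.9 CPM under the drug. BCL2L1 was higher in every drug library by 0.71 ± 0.044 (adjusted p 3e-15).

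**Figure D4:**
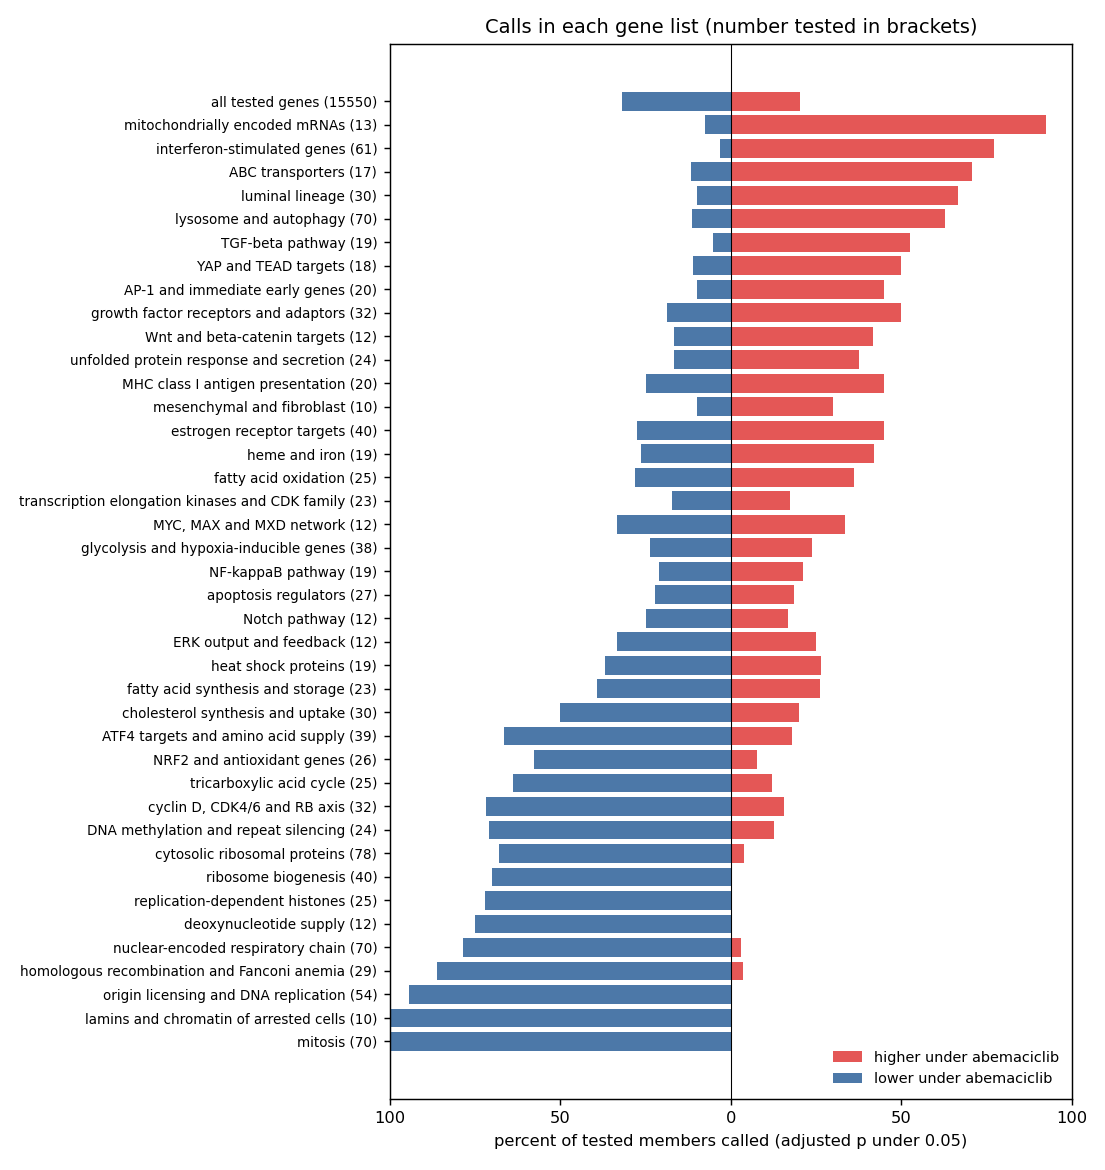
Percent of the tested members of gene lists with at least 10 tested called higher (right) or lower (left) under abemaciclib at an adjusted p under 0.05, with all 15550 tested genes in the top row. Mitosis and replication lie at the bottom with no member higher, and the mitochondrially encoded mRNAs, interferon-stimulated genes, ABC transporters and luminal lineage lie near the top.

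The largest increases were in other kinds of genes, and none reached the size of the largest decreases. Among the 15 protein-coding genes with the largest rise under the same criteria were PIP (1.84 in log2), KRT15 (1.77), IFI27 (1.71), ABCC12 (1.68), SGK1 (1.61), KCNC1 (1.57), BCAS1 (1.57), MDGA1 (1.52), CCDC194 (1.5), SHC2 (1.46), SERPINI1 (1.46), CLU (1.46), LRRC31 (1.46) and DEPTOR (1.43). KRT15, a keratin gene, rose from 19.5 ± 0.93 to 69.2 ± 2.3 CPM, and SGK1, a kinase gene induced by glucocorticoids, from 1.86 ± 0.46 to 7.7 ± 1.2 CPM. DEPTOR, which encodes an inhibitor of mTOR kinase, rose from 14.1 ± 1.9 to 39.5 ± 2.3 CPM.

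Several secreted and luminal genes rose, while GATA3† and FOXA1, factors that set luminal identity, were not called. PIP, which encodes prolactin-induced protein, a secreted product of apocrine breast cells (chr7:143132077-143139746, plus strand, GRCh38, GENCODE 29), was at 575, 557, 572 and 571 CPM under vehicle and 1931, 2085, 2057 and 2104 CPM under abemaciclib. The PIP groups were far apart, with a change of 1.84 ± 0.03 and an adjusted p of 1.7e-31. Of the 7 tested secreted apocrine and milk protein genes 4 rose and 2 fell (1 without abemaciclib replicate 1). The whole list of 20 summed to 1106 to 1144 CPM under vehicle and 3108 to 3329 CPM under the drug. PIP and CLU together made up most of both sums and of the rise. CLU, which encodes the extracellular chaperone clusterin, was at 282, 274, 285 and 287 CPM under vehicle and 745, 798, 762 and 803 CPM under the drug, and the mucosal peptide gene TFF3 rose by 0.66. Of 30 luminal lineage genes, 20 rose and 3 fell, with a median of 0.22. The number that fell was 5 without abemaciclib replicate 1, 1 without vehicle replicate 1 and 0 with either other scaling. The luminal keratin gene KRT8† rose from 2700.2 ± 28 to 3363 ± 150.1 CPM, KRT7 from 38.1 ± 0.60 to 81.2 ± 1.9 CPM, and ELF5, a factor of alveolar differentiation, from 127 ± 3.7 to 209 ± 12 CPM. GATA3, at 1573, 1567, 1583 and 1527 CPM under vehicle and 1594, 1536, 1534 and 1584 CPM under the drug, and FOXA1, at 254, 270.4, 264 and 259 and 263, 254, 257 and 242 CPM, had adjusted p of 0.985 and 0.312. With median-of-ratios scaling GATA3 was called higher by 0.07 (adjusted p 0.047) and FOXA1 was at 0.03, and the sign of GATA3 also changed when single libraries were left out, so neither gene has a settled direction.

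ESR1, the gene of estrogen receptor alpha, was at 93.3, 99.5, 100.3 and 96.02 CPM under vehicle and 105, 102, 96.9 and 94.1 CPM under the drug, overlapping, at 0.03 ± 0.042 (adjusted p 0.573); with the 2 other scalings it was called higher by 0.10 and 0.14. Of 40 tested estrogen receptor targets 18 rose and 11 fell, with a median of 0.11. Among all tested genes 20.2% rose and 32.0% fell, with a median of -0.05. PGR†, the progesterone receptor gene, rose from 736 ± 12 to 1071 ± 44 CPM, GREB1, a coactivator gene, from 97.8 ± 5.1 to 118 ± 10 CPM, and IRS1, the insulin receptor substrate, from 16.2 ± 1.2 to 35.5 ± 1.7 CPM. AGR2, a secretory pathway protein disulfide isomerase, was at 702, 714, 689.8 and 692 CPM under vehicle and 426, 429.6, 441 and 445 CPM under the drug, lower in all 4 drug libraries (-0.68 ± 0.03, adjusted p 2.2e-19). Among 32 growth factor receptors and their adaptors 16 rose and 6 fell, with a median of 0.15.

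Most interferon-stimulated genes rose. Of 61 tested, 47 rose, 2 fell and 12 were not called, with a median of 0.42, and the list of 69 summed to 2001 to 2057 CPM under vehicle and 2991 to 3159 CPM under the drug. IFI27 was at 75.3, 75.9, 73.7 and 74.1 CPM under vehicle and 233, 257, 244 and 255 CPM under the drug (1.71 ± 0.037, adjusted p 3.4e-28). ISG15, a ubiquitin-like modifier, was at 53.5, 52.7, 51.5 and 54.1 CPM under vehicle and 119.6, 129, 126 and 117 CPM under the drug, and IFIT1, a sensor of uncapped RNA, at 26.1, 25.5, 24.4 and 27.3 and 64.6, 68.5, 63.4 and 63.8 CPM. Each of these drug groups was tight and lay at more than 2 times its vehicle group, and OAS2, which makes the activator of RNase L, rose from 8.78 ± 0.86 to 21.7 ± 0.84 CPM. The decrease of EPSTI1, by 0.30 (adjusted p 0.0370), was lost under 5 of the other settings and in 4 of the 8 fits that left out 1 library; the other member that fell was IFNAR2†. The genes of MHC class I antigen presentation moved both ways: 9 of 20 rose and 5 fell (3 with quantile scaling), with a median of 0.04. Over all tested genes 20.2% rose and 32.0% fell, with a median of -0.05. B2M, the light chain of class I molecules, was at 772, 792, 788 and 772 CPM under vehicle and 628, 628, 659.8 and 618 CPM under the drug, lower in every drug library (-0.30 ± 0.029, adjusted p 1.1e-10), and PSMB9, an immunoproteasome subunit, fell from 12.6 ± 1.6 to 5.48 ± 0.76 CPM. HLA-B† overlapped (778, 791, 756 and 789 against 777, 843, 806 and 769.5 CPM, adjusted p 0.295) and was called higher, by about 0.1, only under the 2 other scalings among the settings tried.

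Several signalling lists moved in part. Of 20 AP-1 and immediate early genes 9 rose and 2 fell. JUN was at 52.7, 53.2, 59.5 and 56.4 CPM under vehicle and 117, 106, 107 and 103 CPM under the drug, FOS rose from 8.44 ± 1.2 to 16.9 ± 1.3 CPM and IER5 fell from 55.6 ± 2.1 to 28.7 ± 0.40 CPM. Of 18 YAP and TEAD targets 9 rose and 2 fell (4 without abemaciclib replicate 2), with the matricellular protein gene CCN1 at 54.6, 66.4, 62.4 and 54.9 CPM under vehicle and 139, 135, 136 and 134 CPM under the drug, and the factor gene TEAD4 down by 0.74. In the TGF-beta list 10 of 19 rose and 1 fell (3 without abemaciclib replicate 1 or vehicle replicate 3). Among the risers was the target PMEPA1, from 21.9 ± 2.2 to 39.7 ± 1.0 CPM. The NF-kappaB list had 4 of 19 higher and 4 lower, where 20.2% of all tested genes were higher and 32.0% lower. Its median of -0.04 changed sign under another scaling. MYC, the growth regulator, was at 181, 171, 174 and 171 CPM under vehicle and 140.0, 148, 149 and 161 CPM under the drug (-0.22 ± 0.037, adjusted p 5.6e-06), and MXD4†, which encodes an antagonist that shares its partner MAX, rose from 68.9 ± 2.2 to 107 ± 2.9 CPM.

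Most genes of amino acid supply under the stress factor ATF4 fell. Of 39 tested members 26 fell and 7 rose, with a median of -0.39; among them 12 of 15 enzymes and 8 of 10 transporters fell, while the 14 regulators were split with 5 higher and 6 lower. SLC7A11, the cystine transporter, was at 29.2, 27.7, 29.4 and 29.1 CPM under vehicle and 8.5, 7.71, 6.71 and 7.13 CPM under the drug (-1.82 ± 0.088, adjusted p 2.5e-18). ASNS†, asparagine synthetase, was at 62.3, 58.4, 61.1 and 56.8 CPM under vehicle and 18.7, 19.8, 18.02 and 19.8 CPM under the drug. Of the enzymes that make serine, PHGDH and PSAT1 fell from 93.6 ± 2.4 to 29.8 ± 1.6 CPM and from 69.6 ± 3.0 to 25.3 ± 1.5 CPM. The regulators DDIT4, an inhibitor of mTORC1 signalling, and DDIT3†, which encodes the stress factor CHOP, rose instead, by 0.61 and 0.52.

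Most lysosome and autophagy genes rose: 44 of 70 tested were higher and 8 lower, with a median of 0.24 against -0.05 over all genes. The autophagy gene WIPI1 was at 47.9, 51.8, 47.7 and 48.9 CPM under vehicle and 93.5, 91.6, 92.5 and 89.5 CPM under the drug, and CTSD†, the gene of the protease cathepsin D, rose from 624 ± 11 to 999 ± 51 CPM. Of the proton pump and membrane genes, 15 of 23 rose and none fell, whereas the hydrolase gene GUSB fell from 99.6 ± 3.9 to 62.9 ± 2.0 CPM. Of 30 genes of cholesterol synthesis and uptake 15 fell and 6 rose, with ACAT2 at -1.31. Of 23 genes of fatty acid synthesis and storage 9 fell and 6 rose, with the desaturase gene FADS2† at -0.91. Among all tested genes 32.0% fell and 20.2% rose, so the fatty acid counts were near the general shares. Fatty acid oxidation was balanced with 9 of 25 higher and 7 lower, although ACOX2, a peroxisomal oxidase gene, was at 15.3, 17.9, 15.6 and 15.2 CPM under vehicle and 3.92, 4.91, 4.59 and 3.85 CPM under the drug. MT2A, a metallothionein gene, fell from 127 ± 3.5 to 42.6 ± 1.1 CPM, and 12 of 17 ABC transporter genes rose.

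Nuclear and mitochondrial genes of the respiratory chain moved in opposite directions. Of 70 nuclear-encoded subunits 55 fell and 2 rose (7 and 9 with the other scalings), with a median of -0.21. With median-of-ratios and quantile scaling the median was -0.14 and -0.10, and 40 and 37 members were lower. COX8A†, a subunit of cytochrome oxidase, was at 1061, 1052, 1031 and 1033 CPM under vehicle and 623, 625, 659.9 and 685 CPM under the drug, and NDUFB6† of complex I fell from 208 ± 4.5 to 133 ± 7.3 CPM. Of the 13 mRNAs encoded in mitochondrial DNA 12 rose (8 with quantile normalization), with a median of 0.47, and together they went from 7.39 to 7.94% of assigned reads under vehicle to 10.2 to 10.97% under the drug. MT-ND4† was at 12659, 13427, 13598 and 14050.0 CPM under vehicle and 20386, 20433, 19913 and 20454 CPM under the drug, a rise of 0.60 that was not called with quantile normalization (0.03, adjusted p 0.426). MT-ND6†, the only one on the other strand, was at 40.6, 46.1, 55.9 and 46.6 and 38.5, 29.04, 32.1 and 45.4 CPM, and its decrease of 0.39 (adjusted p 0.0150) was lost without vehicle replicate 3 (adjusted p 0.0734) or without abemaciclib replicate 2 (0.087) or 3 (0.0513), and under 3 of the other settings.

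Most genes for making ribosomes fell by small amounts. Of 78 cytosolic ribosomal protein genes 53 fell and 3 rose (7 and 5 with the other scalings), with a median of -0.17, and reads of 76 of the 78 were partly shared with other genes, by the criterion marked with a dagger. RPS7† was at 1528, 1491, 1489 and 1473 CPM under vehicle and 1106, 1041, 1137 and 1126 CPM under the drug, while RPL3† rose from 1746 ± 10 to 2155 ± 45 CPM. Of 40 genes of ribosome biogenesis 28 fell and none rose (2 with either other scaling). Those that fell include FBL, the nucleolar methyltransferase fibrillarin, from 241 ± 7.2 to 141 ± 5.2 CPM. The library make-up moved with these lists: ribosomal protein mRNAs were 17.3 to 17.7% of reads under vehicle and 15.1 to 16.1% under the drug. The nuclear noncoding RNA MALAT1† was 0.888 to 1.11% of reads under vehicle and 1.74 to 2.51% under the drug, highest in abemaciclib replicate 1, and NEAT1† rose from 1105 ± 63 to 3358 ± 375 CPM. MALAT1 and NEAT1 were chosen after their values were seen, and their part in the other changes was not tested.

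FAH, the gene knocked out elsewhere in the study (chr15:80152490-80186946, plus strand, GRCh38, GENCODE 29), was at 25.1, 27.5, 25.2 and 28.2 CPM under vehicle and 23.4, 24.1, 25.8 and 22.6 CPM under the drug in the control cells. The groups overlapped, and the difference of the means was not past the threshold in a two-sided exact permutation test (p = 0.0857; the smallest p that 70 assignments allow is 0.0286). With median-of-ratios scaling the difference was -1.37 CPM, against -2.52 CPM as deposited. In limma the change was -0.14 ± 0.079 with an adjusted p of 0.143. Of 9 tested genes of phenylalanine and tyrosine breakdown and acetoacetate use 3 rose and 2 fell, where 20.2% of all tested genes rose and 32.0% fell. AACS, which activates acetoacetate, rose from 24.4 ± 2.0 to 38.8 ± 0.48 CPM and the transaminase gene GOT1 fell from 86.1 ± 3.2 to 52.9 ± 2.5 CPM.

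For most tested genes the drug effect was not shown to differ between control and FAH knockout cells. Many of these genes had no called effect to compare, since 7441 of the 15550 tested were not called in control cells. In the knockout the same contrast was made on 4 other libraries a group. Both contrasts share the fit's estimate of the spread. The interaction (knockout effect minus control effect) was more positive in the knockout for 767 genes (4.93% of those tested) and more negative for 1005 (6.46%) at an adjusted p under 0.05. Of the mitosis genes 30 of 70 had a more negative effect in the knockout and 1 a more positive one, so that the list's median was -1.85 in control and -2.09 in knockout cells. Of the interferon-stimulated genes 32 of 61 had a more negative effect and none a more positive one, with medians of 0.42 and 0.13. IFI27 rose by 1.71 in control and 0.61 in knockout cells (interaction -1.1, adjusted p 1.4e-16), and PIP by 1.84 and 0.75 (interaction -1.1, adjusted p 6e-19). The amino acid genes went the other way: 24 of 39 had a more positive effect in the knockout, where the median was -0.12 against -0.39, and ASNS changed by -1.59 in control and -0.12 in knockout cells (interaction 1.47, adjusted p 7.6e-14).

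By size, the 5 largest positive interactions were ASNS (1.47), SLC7A11 (1.44), GDF15 (1.04), PSAT1 (0.98) and XAGE2 (0.95), and the 5 largest negative ones RRM2 (-1.2), CAMK2B (-1.14), MDGA1 (-1.13), MYBL2 (-1.12) and CLSPN (-1.11). For RRM2, MYBL2 and CLSPN the decrease was larger in the knockout, and for MDGA1 and CAMK2B the increase in control cells was smaller there or absent: CAMK2B was at 4.24, 4.66, 5.44 and 4.34 CPM under vehicle and 10.1, 7.45, 9.01 and 9.73 CPM under the drug in control cells, and changed by -0.31 in the knockout. Of the nuclear-encoded respiratory chain 34 of 70 genes, and of the ribosomal protein genes 49 of 78, had a more positive effect in the knockout, and none of either list a more negative one. The ribosomal protein median was -0.17 in control and 0.02 in knockout cells. CCND1 rose in both, by 1.11 and 0.85 (interaction -0.26, adjusted p 0.00240), while for CDK6, CDKN1A, ESR1 and FAH the interaction was not past the threshold (adjusted p 0.525, 0.123, 0.946 and 0.859).

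**Figure D5:**
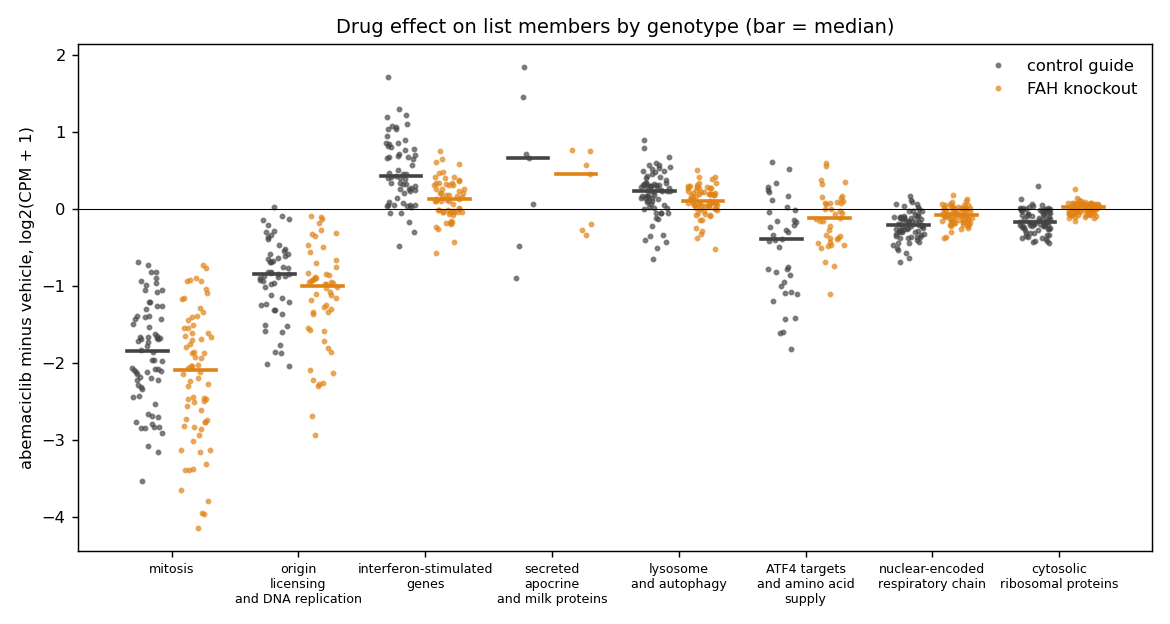
Drug effect (abemaciclib minus vehicle, log2(CPM + 1)) of each tested member of 8 lists in control-guide cells and in FAH knockout cells, with 1 point per gene and a bar at the median. The interferon-stimulated genes lie lower in the knockout (median 0.13 against 0.42), the ribosomal protein genes higher (0.02 against -0.17), and the mitosis genes are low in both (-2.09 and -1.85).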

How the data were processed

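RNA of 16 T47D libraries was sequenced, 4 in each of 4 groups, and the difference of abemaciclib and vehicle was taken between the 8 control-guide libraries. Per the submitters' processing notes, the tools were STAR 2.7.11, SAMtools 1.22.1, featureCounts, Subread 2.1.1 and MultiQC 1.32, on GRCh38; the strand setting and annotation release are not named in these sources. The authors deposited CPM values, reads per 1000000 assigned reads, and no count model was run on them because 70.5 to 71.3% of the values above 0 in these libraries were whole multiples of 1 read (tolerance 0.02 reads). The value of 1 read gave the depth. The 92 ERCC features, at 3.06 to 6.28 CPM in all, were left out, and 51 symbols altered in the deposited table were restored by gene ID.

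Here log2(CPM + 1) was modelled by limma 3.58.1 (R 4.3.3) using 4 group means over all 16 libraries and empirical Bayes with trend, and p-values were adjusted by Benjamini-Hochberg over all 15550 tested genes. Fold changes on this scale understate the change of low genes. A gene that passed the level filter through 1 group alone had to differ. The members, gene lists and tests were chosen with earlier results of these data known. Genes were named by rule: the 15 largest increases and decreases, up to 4 called members of a list in its main direction and 2 against it, a set of cell cycle and lineage genes, and the 5 largest interactions each way; some results under this rule are not reported here. Alternatives were other pseudocounts, filters, scalings, fits and the removal of each library; the scripts were tested on simulated data. Promoter windows came from RefSeq, gene positions from GENCODE 29.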

Additional observations from a re-analysis of the deposited data

Results flagged for a closer look

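For 83 of the 127 genes named with values here, the drug effect differed between genotypes, by an interaction with an adjusted p under 0.05 in limma. Over all tested genes the shares were 4.93% more positive and 6.46% more negative. The named genes include the largest interactions and the largest changes in control cells, so the number of them says nothing on its own. The values that follow are the knockout effect minus the control effect in log2. Among genes that the drug lowered, negative values mark a larger decrease in the knockout. They were PCNA (-0.21), MCM3 (-0.38), MCM10 (-1.07), CLSPN (-1.11), RRM2 (-1.2), TYMS (-0.86), TK1 (-0.89), EXO1 (-1.1), UHRF1 (-0.62), DNMT1 (-0.27) and PCLAF (-0.73) for DNA synthesis and its upkeep, and AURKB (-0.61), KIF20A (-0.79), SPC25 (-0.74), CDK1 (-0.72), FOXM1 (-0.69), MYBL2 (-1.12), TOP2A (-0.52), MKI67 (-1.0), BIRC5 (-0.54), NUSAP1 (-0.56) and LMNB1 (-0.32) for mitosis and the nuclear lamina. In the cyclin D and RB axis the values were CCND1 (-0.26), CCND3 (-0.39), RBL1 (-0.57), CDKN2A (0.35), CDKN2C (-0.80), E2F1 (-0.90), E2F7 (-0.70), CCNE2 (-1.07) and CCNA2 (-0.49), of which CDKN2A alone was positive and CCND1 was a gene that rose. Among genes that the drug raised in control cells, negative values mark a smaller increase, none or a decrease in the knockout. In the set of largest increases, interferon genes and CAMK2B they were IFI27 (-1.1), OAS2 (-0.90), ISG15 (-0.80), IFIT1 (-0.65), PIP (-1.1), CLU (-0.69), KRT15 (-0.42), ABCC12 (-0.91), KCNC1 (-1.02), BCAS1 (-0.65), MDGA1 (-1.13), CCDC194 (-0.79), SHC2 (-0.53), SERPINI1 (-0.96), LRRC31 (-0.86), DEPTOR (-0.63) and CAMK2B (-1.14). In lineage, signalling, lysosome and other genes that rose they were PGR (-0.15), KRT7 (-0.31), ELF5 (-0.46), TFF3 (-0.21), IRS1 (-0.87), IGFBP5 (-0.52), RBBP8 (-0.37), BCL2L1 (-0.30), FOS (-0.69), JUN (-0.55), WIPI1 (-0.38), CTSD (-0.27), MXD4 (-0.24), AACS (-0.45), MT-ND4 (-0.27), HSPB1 (-0.30), MALAT1 (-0.77) and NEAT1 (-0.96). Positive values were found in genes that the drug lowered in control cells, where they mark a smaller decrease or a rise in the knockout: ASNS (1.47), SLC7A11 (1.44), PSAT1 (0.98), PHGDH (0.51), GDF15 (1.04), XAGE2 (0.95), AGR2 (0.40), B2M (0.21), ACAT2 (0.26), ACOX2 (0.58), GOT1 (0.28), COX8A (0.31), NDUFB6 (0.43), RPS7 (0.29), FBL (0.28) and MYC (0.28). The remaining gene was NEURL1B (-0.54), which fell in both genotypes.

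One library lay far from the other 3 of its group, by Dixon's criterion, in 16 of the 254 groups of 4 values checked (6.30%), and chance flags about 1 group in 20. In 5 of them it was abemaciclib replicate 1, the library that stood apart on the second principal component: RBL2 at 26.5 CPM in abemaciclib replicate 1 (others 22.9 to 23.4), SPC25 at 2.48 CPM in abemaciclib replicate 1 (others 3.32 to 3.34), BCL2L1 at 97.5 CPM in abemaciclib replicate 1 (others 89.9 to 91.2), KRT15 at 72.6 CPM in abemaciclib replicate 1 (others 67.8 to 68.4) and ABCC12 at 15.1 CPM in abemaciclib replicate 1 (others 14.1 to 14.1). The others among cell cycle genes and secreted factors were RB1 at 37.7 CPM in vehicle replicate 2 (others 32.3 to 32.9), CDKN2C at 7.14 CPM in abemaciclib replicate 3 (others 6.17 to 6.31), CCNE2 at 4.84 CPM in abemaciclib replicate 3 (others 6.07 to 6.22), E2F3 at 23.9 CPM in vehicle replicate 3 (others 20.7 to 21.1) and AREG at 127 CPM in vehicle replicate 1 (others 137 to 139). Further ones were KRT7 at 37.2 CPM in vehicle replicate 2 (others 38.3 to 38.5), PSMB9 at 14.9 CPM in vehicle replicate 1 (others 11.7 to 11.9), FOS at 6.6 CPM in vehicle replicate 4 (others 8.93 to 9.17), ACOX2 at 17.9 CPM in vehicle replicate 2 (others 15.2 to 15.6), MT-ND4 at 19913 CPM in abemaciclib replicate 3 (others 20386 to 20454) and CDH3 at 55.5 CPM in abemaciclib replicate 3 (others 60.6 to 61.4).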

How the results depend on the processing

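The counts of genes higher and lower under the drug moved by less than 1.5 times under every alternative: 2613 to 4350 higher and 3826 to 4979 lower over the other pseudocounts, filters, scalings and fits, and 2844 to 3109 higher and 4610 to 5130 lower when 1 library was left out. For the genotype difference, only the removal of the level filter moved a count further, to 605 genes with a more negative effect in the knockout, with 39475 genes tested; leaving out 1 library gave 836 to 1123 such genes and 630 to 807 more positive ones. The difference of mean FAH was -2.52 CPM and ranged from -3.13 to -1.96 CPM without 1 library, with exact permutation p from 0.0571 to 0.171, and was -1.37 CPM with median-of-ratios scaling (p = 0.257). With 7-letter E2F words the shares rose to 33.9% of the mitosis genes and to 60% of the deoxynucleotide genes, from 6.78% and 30%. Of the 127 named genes, 117 kept their direction and side of the threshold under every alternative that gave a value; the others were E2F3, CCNE1, RBL2, EPSTI1, MT-ND4, MT-ND6, ESR1, HLA-B, GATA3 and FOXA1, and the cause was not tested. Changes of sign were limited to FOXA1, at 0.0301 and 0.0655 with the 2 other scalings, and GATA3, at 0.0719 with median-of-ratios scaling and from -0.0118 to 0.00789 without 1 library. Over the alternatives other than the filters, the median changed sign in 9 of 48 lists, all with medians near 0. Libraries with the same replicate number did not deviate together across treatments (r from -0.0127 to 0.0254), and a fit with a replicate block gave 3143 genes higher and 4969 lower, with 752 and 1018 interactions. Depth limits low genes most: 1 read was worth 0.0850 to 0.101 CPM, so a gene at 1 CPM rests on about 10 reads.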

Other observations

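Other lists moved less evenly, and several of their counts lay near the shares among all tested genes, 20.2% higher and 32.0% lower. These shares, 3134 and 4975 of 15550 genes, are those of the deposited scaling. With median-of-ratios and quantile scaling 4100 and 4350 of all tested genes were higher, and 3956 and 3826 were lower. Of 26 tested NRF2 and antioxidant genes 15 fell and 2 rose (median -0.21; 4 and 5 rose with the median-of-ratios and quantile scalings), and of 25 tricarboxylic acid cycle genes 16 fell and 3 rose (median -0.15). With these other scalings 10 and 8 of the cycle genes fell (medians -0.08 and -0.07). In the unfolded protein response list 9 of 24 rose and 4 fell (median 0.10), while with the other scalings 15 and 18 rose and 2 fell. In the heat shock list 5 of 19 rose (3 without abemaciclib replicate 1) and 7 fell. The list's summed level was 8061 to 8309 CPM under vehicle and 9898 to 10396 CPM under the drug, but HSPB1† alone went from a mean of 3475 to 5838 CPM. The other 18 genes together were lower under the drug, at 4607 to 4788 CPM under vehicle and 4192 to 4494 CPM under the drug; HSPB1 was chosen after its values were seen. Glycolysis and hypoxia-inducible genes had 9 of 38 in each direction, but 17 and 19 were higher with the other scalings. The list of other CDKs and their partners had 4 of 23 genes in each direction, but 7 were higher with either other scaling and 7 were lower without abemaciclib replicate 1. Of 12 Wnt and beta-catenin targets 5 rose (3 without abemaciclib replicate 1 or vehicle replicate 1) and 2 fell. Of 12 Notch genes 2 rose (4 with either other scaling) and 3 fell, of 12 genes of ERK output 3 rose and 4 fell (2 with quantile scaling), and of 19 heme and iron genes 8 rose and 5 fell. Long noncoding RNAs took 3.88 to 4.13% of assigned reads under vehicle and 4.85 to 5.72% under the drug, a difference carried by MALAT1 and NEAT1. Without those 2 the share was 2.89 to 2.91% under vehicle and 2.80 to 2.85% under the drug. Of 2335 tested long noncoding RNA genes 317 rose and 532 fell, smaller shares each way than the 20.2% and 32.0% of all tested genes.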
